A study of Drosophila melanogaster with 16 samples.

Results

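The sites described here are places on the large autosomes of Drosophila melanogaster where the chromatin proteins ROW and WOC were found together in fly heads, without either HP1 protein, and where exactly 1 peak of the promoter mark H3K4me3 touched them. They were chosen by peak calls alone. Overlapping peaks of ROW, WOC, HP1c and HP1b (1 bp or more) were merged into regions on arms 2L, 2R, 3L and 3R, and a region was kept when it held a ROW and a WOC peak, no HP1c or HP1b peak, and overlapped 1 H3K4me3 peak. Of 5880 such regions on the 4 arms, and of 7897 on all contigs, 756 met the rule, which is 12.9% of the regions on the 4 arms. The presence and absence of these peaks is therefore no finding. Position, width and strength within a site were not set by the rule beyond the overlap itself. That overlap still limits them in part, since a wide peak or region meets it more easily. Position, width and strength are therefore given as descriptions only.

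ROW and WOC are zinc-finger proteins of Drosophila that bind each other and are known as partners of HP1c, a member of the heterochromatin protein 1 family that is found in euchromatin. HP1b is a further member of that family. H3K4me3 is placed on nucleosomes next to the start sites of active genes by the Set1/COMPASS family of methyltransferases, and the start site itself is usually poor in nucleosomes, so that the mark lies beside it. BEAF-32, named in the study's title with ROW, is a boundary protein known to bind close to promoters, often between genes that point away from each other.

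Heads came from flies of genotype Actin-gal4/+ (W1118) control, raised at 25 °C, and the same genotype served for every antibody. Actin-gal4 is a broadly active driver, and no transgene under its control is named for these flies. The labels state neither age nor sex. ROW, WOC, HP1c and H3K4me3 were each profiled in 3 libraries, and HP1b and the non-specific antibody igG in 2, which makes 16 libraries.

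On the 4 arms the peak lists hold 4022 ROW, 3600 WOC, 3082 HP1c, 1720 HP1b and 4488 H3K4me3 peaks, each list with all replicates of its antibody in 1 set of peaks. The depth of each library and the spread between replicates are unknown, so no test across samples could be made and none is given. Medians carry order-statistic intervals and shares carry Wilson intervals, both at 95%, and both cover counting error among sites only. Heads hold many cell types, and a site bound in few cells cannot be told apart from one bound weakly in many.

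The H3K4me3 summit, the position of strongest signal within the peak, stood beside the site and at a short, narrow range of distances. The median distance from the centre of the site to the summit was 329 bp (319 to 336, n = 756 sites), with quartiles of 272 and 395 bp. The summit lay from 200 to under 400 bp away at 529 sites, 70.0% of them (66.6 to 73.1), against 56.9% of all 1820 regions on these arms that overlap exactly 1 H3K4me3 peak, these sites included. Among regions with 1 H3K4me3 peak, that share was 62.9% (57.4 to 68.1) with ROW alone and 46.5% (41.1 to 52.0) with ROW, WOC and HP1c. The summit lay under 200 bp away at 48 sites (6.35%) and 600 bp or more away at 53 sites (7.01%). At 588 sites, 77.8% (74.7 to 80.6), the summit fell outside the site altogether, close to the 75.2% of all regions with 1 H3K4me3 peak. The summit had the higher coordinate at 371 sites and the lower at 385, nearly equal numbers. Measured to the middle of the H3K4me3 peak in place of its summit, the median distance was 350 bp.

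**Figure D1:**
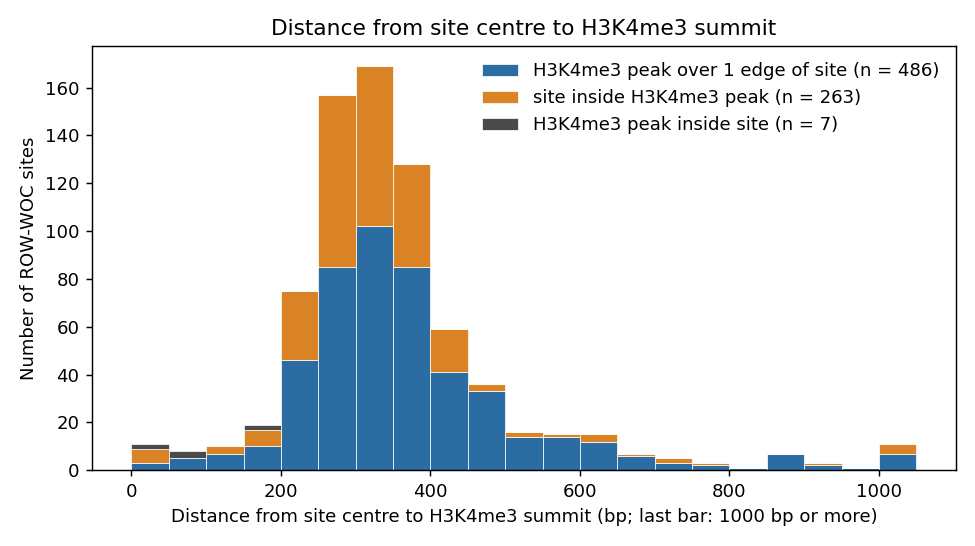
Histogram of the distance in bp from the centre of each of the 756 ROW-WOC sites to the summit of its H3K4me3 peak, in bins of 50 bp with all larger distances in the last bin, with the number of sites on the vertical axis and colours for how site and peak lie to each other. Sites of both large placements gather between 200 and 400 bp, where 529 sites lie, and 48 lie under 200 bp.

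Site and mark lay to each other in 3 ways, a division made after the values were seen. At 486 sites (64.3%, 60.8 to 67.6) the H3K4me3 peak covered 1 edge of the site and left the other edge free. At 263 sites (34.8%, 31.5 to 38.3) the whole site lay inside the H3K4me3 peak, against 28.9% of all regions with 1 H3K4me3 peak. At 7 sites the H3K4me3 peak lay inside the ROW-WOC site.

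At the 486 sites with the mark over 1 edge, the overlap was a median of 141 bp (133 to 153), and the H3K4me3 peak covered the centre of the site at 64 of them (13.2%). The near edge of the peak lay a median of 114 bp (103 to 126) from the site centre on the summit side, and the far edge 755 bp (733 to 776) from it. The summit stood 342 bp (330 to 354) from the site centre.

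At the 263 enclosed sites the mark reached to both sides. It extended a median of 728 bp (710 to 749) from the site centre on the side of the summit and 660 bp (632 to 678) on the other side, and at 260 of the 263 it reached 300 bp or more on both sides. The summit was nevertheless off the centre, at a median of 308 bp (298 to 322), and outside the site at 193 of the 263. At the remaining enclosed sites the summit lay within the site.

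**Figure D2:**
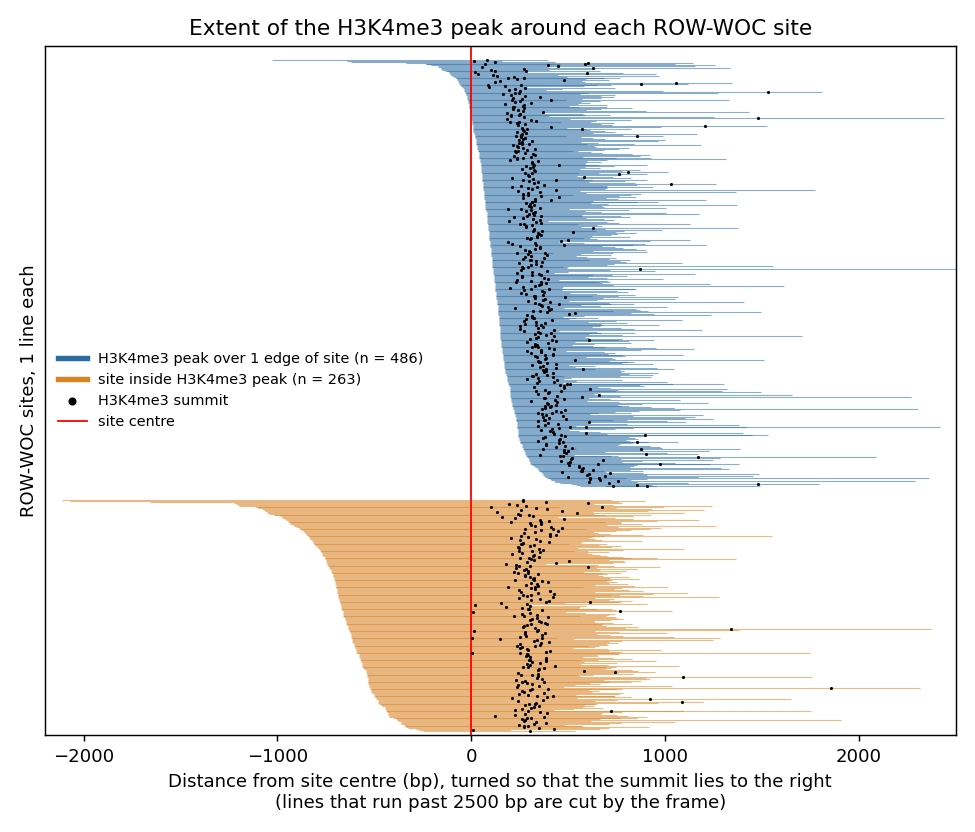
Extent of the H3K4me3 peak, 1 horizontal line per site, against the distance in bp from the site centre, with each site turned so that its summit lies to the right; blue lines are the 486 sites with the peak over 1 edge, orange lines the 263 sites inside the peak, and black points the summits. Summits form one band near 300 bp in both groups, while the orange lines extend to the left of the centre by a median of 660 bp and 64 of the 486 blue lines reach across it.

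The width of the H3K4me3 peak followed this placement. It was a median of 818 bp over all 756 sites (773 to 895), 1400 bp (1374 to 1430) at enclosed sites and 631 bp (613 to 656) at sites with the mark over 1 edge. A peak that holds a whole site has to be wider than the site, so part of this difference is set by the placement itself. Of the 756 sites, 318 (42.1%, 38.6 to 45.6) had an H3K4me3 peak of 1 kb or wider, against 23.4% of the 4488 H3K4me3 peaks on these arms. Most of those peaks touch no such site, and a wide peak is touched more easily. Regions with 1 H3K4me3 peak in other classes were nearer, at 36.3% (31.2 to 41.8) for ROW-WOC-HP1c and 39.4% (34.1 to 44.9) for ROW alone. Enclosed sites supplied 252 of those 318 and sites with the mark over 1 edge supplied 66. Among the 208 sites with an H3K4me3 peak under 600 bp, 201 had it over 1 edge and 1 was enclosed.

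**Figure D3:**
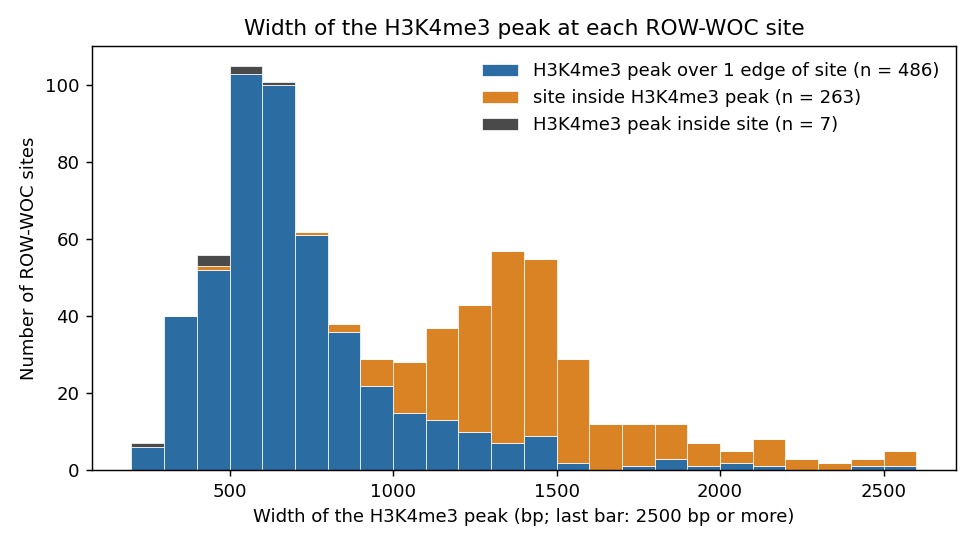
Histogram of the width in bp of the H3K4me3 peak at the 756 ROW-WOC sites, in bins of 100 bp with all wider peaks in the last bin, stacked by placement. The sites with the peak over 1 edge have a median of 631 bp and the enclosed sites a second mode with a median of 1400 bp.

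The strength of the mark was measured by the authors' fold enrichment at the summit. Its median was 4.39 at these sites (4.28 to 4.46), with a range of 1.95 to 8.26, and 3.85 (3.80 to 3.90) over all H3K4me3 peaks of the 4 arms. A wide peak meets the overlap rule more easily, and fold rose with width, so this difference is not free of the rule. Enclosed sites had a median fold of 4.62 (4.52 to 4.75) and sites with the mark over 1 edge 4.21 (4.08 to 4.34). Wider peaks had higher folds: the median fold was 3.62 (3.28 to 3.77) below 600 bp, 4.59 (4.41 to 4.75) from 600 to under 1000 bp, 4.62 (4.49 to 4.69) from 1000 to under 1700 bp and 4.93 (4.64 to 5.46) at 1700 bp or more. Across the sites, Spearman's rho between H3K4me3 width and fold was 0.48 (n = 756). The width of the ROW-WOC site had almost no relation to the fold (rho = 0.05, n = 756), and neither had the distance to the summit (rho = -0.00, n = 756). All of these points come from the same combined libraries.

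Some sites with the mark over 1 edge had further H3K4me3 on the side away from the summit. Where the touching peak crossed the site centre, that side was not always the side of the free edge. A second H3K4me3 peak lay within 1 kb on the side away from the summit at 142 of the 756 sites, 18.8% (16.2 to 21.7), against 16.0% of all regions with 1 H3K4me3 peak. Of these, 129 were among the 486 sites with the mark over 1 edge (26.5%, 22.8 to 30.6) and 12 among the 263 enclosed sites (4.56%, 2.63 to 7.80), whose own peak already fills much of that kilobase. The share depends on which peaks are counted. With the rule applied anew to only H3K4me3 peaks above the median -log10 q of the list, it was 8.41% of 654 sites. With all peaks within 2 kb it was 30.8% of the 756 sites. At 55 sites the second peak stopped within 100 bp of the site without touching it.

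In the 129 sites flanked in this way, the touching peak had a median fold of 4.21 (3.94 to 4.44) and a summit 328 bp (313 to 357) from the centre. The second peak had a median fold of 3.64 (3.26 to 3.93) and a summit 817 bp (690 to 958) away. The touching peak had the higher fold at 83 of the 129 sites (64.3%, 55.8 to 72.1). The touching peak has to overlap the site and the second peak has to miss it, so neither difference is free of the rule. The other 357 sites with the mark over 1 edge had no further H3K4me3 peak within 1 kb on the side away from the summit. For the 356 of them with one farther along the arm, the gap was a median of 7263 bp (6140 to 8924). These 357 and the 129 flanked sites had similar touching peaks, with median folds of 4.21 (4.05 to 4.36) and 4.21, and median widths of 641 bp (615 to 663) and 604 bp (566 to 671).

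The enclosed sites can be set beside the 180 ROW-WOC regions without HP1 proteins that touched exactly 2 H3K4me3 peaks. An enclosed site had 1 peak of 1400 bp, while at the 180 regions the pair spanned 1556 bp (1507 to 1620) from outer edge to outer edge. Enclosed sites had a region width of 527 bp (511 to 552) and regions with 2 peaks 611 bp (590 to 648). Centre to summit was 308 bp at enclosed sites and 387 bp (376 to 400) over the 360 peaks of the pairs. Fold was 4.62 at enclosed sites and 3.75 (3.64 to 3.95) over the 360 peaks. The 2 folds are unlike measures, since an enclosed site gives 1 summit and a pair gives both its stronger and its weaker peak. The 360 peaks were also narrower, with a median width of 576 bp (552 to 595), and fold rose with width among the sites. The gap within the pairs was a median of 338 bp (326 to 353) and never under 243 bp. That was also the smallest gap between any neighbouring H3K4me3 peaks on the 4 arms, so a shorter dip in the signal does not appear as 2 peaks in this list. Whether an enclosed site holds a dip of that kind was not tested, since the signal within peaks was not analysed here.

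Within a site the ROW and WOC peaks lay almost on top of each other. Of the 756 sites, 751 had exactly 1 peak of each protein, 4 had 1 ROW and 2 WOC peaks, and 1 had 2 ROW peaks and 1 WOC peak. In the 751, the centres of the ROW and WOC peaks were a median of 24.0 bp apart (22.0 to 26.5), and at most 290 bp. The merging makes the 2 peaks of such a site overlap, which limits this distance. Like classes gave close values. The median was 22.5 bp (18.5 to 27.5) at ROW-WOC regions with 2 H3K4me3 peaks and 26.0 bp (22.5 to 31.0) at those with none. At ROW-WOC-HP1c regions with 1 H3K4me3 peak it was 28.0 bp (24.5 to 33.0).

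The ROW peak was the wider one. ROW peaks had a median width of 517 bp (507 to 525, n = 755) and WOC peaks 409 bp (400 to 423, n = 752), with a median difference within the site of 89.0 bp (82.0 to 96.0, n = 751). ROW was wider than WOC at 651 of 751 sites (86.7%, 84.1 to 88.9), narrower at 98 and equal at 2. Over all 2912 regions of the 4 arms with exactly 1 ROW and 1 WOC peak, ROW was wider in 75.1%. The share was 87.8% (83.7 to 91.0) at ROW-WOC-HP1c regions with 1 H3K4me3 peak, 90.9% (85.7 to 94.3) at ROW-WOC regions with 2 H3K4me3 peaks and 78.6% (74.3 to 82.3) at those with none. The WOC peak lay wholly within the ROW peak at 490 sites (65.2%, 61.8 to 68.6), the ROW peak within the WOC peak at 39 (5.19%), and at 222 each reached past the other. WOC lay within ROW at 62.5% (57.0 to 67.7) of the ROW-WOC-HP1c regions, 77.7% (71.0 to 83.2) of the ROW-WOC regions with 2 H3K4me3 peaks and 63.4% (58.6 to 68.0) of those with none. WOC nested in ROW at 205 of the 263 enclosed sites (77.9%, 72.6 to 82.5) and at 281 of the 482 sites with the mark over 1 edge and 1 peak of each protein (58.3%, 53.8 to 62.6). Across sites the widths of the ROW and WOC peaks were correlated (Spearman's rho = 0.70, n = 751). The width of a called peak also moves with antibody quality and sequencing depth, and their part in this difference was not tested.

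**Figure D4:**
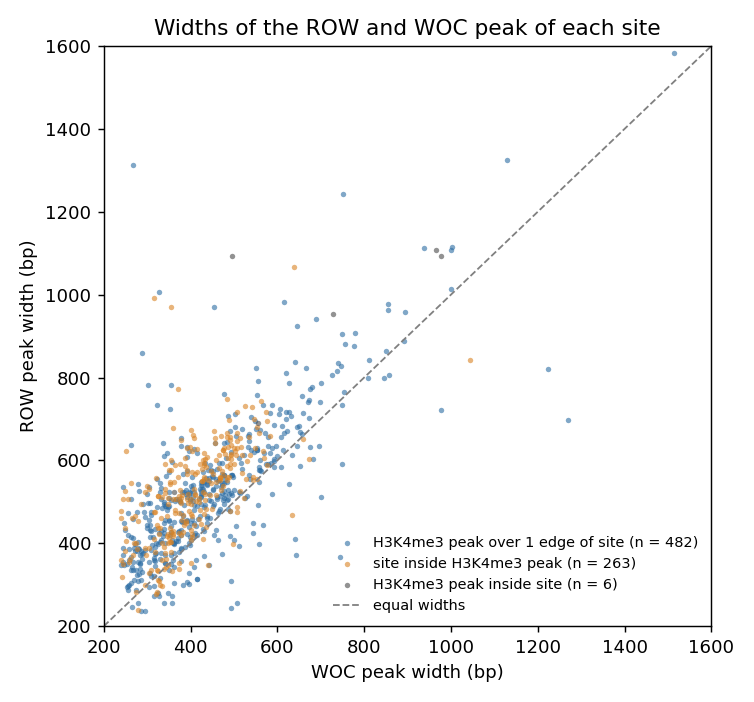
Width of the ROW peak in bp against the width of the WOC peak in bp at the 751 sites with 1 peak of each protein, coloured by placement, with a dashed line at equal widths. Points lie above the line at 651 sites and below it at 98.

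The ROW peak was displaced slightly towards the mark relative to the WOC peak. The ROW centre lay on the summit side of the WOC centre at 467 of 751 sites (62.2%, 58.7 to 65.6), the WOC centre at 281 (37.4%), and both coincided at 3, with a median displacement of 9.0 bp (6.50 to 11.5). All 1347 regions with 1 ROW, 1 WOC and 1 H3K4me3 peak gave the same 62.2%. Sites with the mark over 1 edge gave 66.4% (62.1 to 70.5, n = 482) and a displacement of 12.0 bp (9.0 to 14.5), while enclosed sites gave 54.4% (48.3 to 60.3, n = 263) and 2.50 bp (-2.0 to 7.0). At the 165 ROW-WOC regions that touched no H3K4me3 peak but had one within 1 kb, the ROW centre lay on the side of that peak in 46.1% (38.6 to 53.7) and the displacement was -2.0 bp (-10.5 to 2.0). A region that reaches further towards a peak meets the overlap rule more easily, so the displacement at sites with the mark over 1 edge is not free of the rule.

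Set beside ROW-WOC regions that also held HP1c (314 with 1 H3K4me3 peak and no HP1b), these sites had a mark of like strength at a shorter distance. Median fold was 4.39 at these sites and 4.40 (4.18 to 4.54) with HP1c, and median H3K4me3 width was 818 bp and 760 bp (724 to 814) with HP1c. The summit lay 329 bp from the centre at these sites and 404 bp (386 to 418) with HP1c, where regions were also wider, at 525 bp (515 to 539) for these sites and 661 bp (640 to 680) with HP1c. Of these sites 34.8% were enclosed by the mark, against 21.7% (17.5 to 26.5) with HP1c.

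The 310 regions with ROW alone and 1 H3K4me3 peak differed the other way in distance. Median width was 525 bp at these sites and 350 bp (341 to 358) with ROW alone, and the summit lay 329 bp from the centre at these sites and 284 bp (272 to 296) with ROW alone. Under 200 bp lay 6.35% (4.82 to 8.32) of the summits of these sites and 19.4% (15.3 to 24.1) of those with ROW alone. Median fold was 4.39 at these sites and 4.28 (4.18 to 4.49) with ROW alone, and the mark enclosed 34.8% of these sites and 37.7% (32.5 to 43.3) of those with ROW alone. Distance and region width moved together within these sites too (rho = 0.34, n = 756), so the distances of classes that differ in width are not independent of it.

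ROW-WOC regions without HP1 proteins and without H3K4me3 numbered 402. Median width was 525 bp at the sites with 1 H3K4me3 peak and 445 bp (433 to 464) without the mark, and a wider region touches a peak more easily. Of the 402, 165 (41.0%, 36.3 to 45.9) had an H3K4me3 peak within 1 kb and 54 within 100 bp. Median fold was 4.39 for the touching peaks of the 756 sites and 3.13 (2.88 to 3.39) for the peaks that came within 1 kb of the 165 regions. A wide peak is touched more easily, and wider peaks had higher folds at the 756 sites, so this difference is not free of the rule.

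Arm 3R held 254 sites, 3L 172, 2L 167 and 2R 163, so that 502 lay on the 3 arms other than 3R. This was 9.11 sites per Mb of 3R and 7.01 to 7.71 on the other 3 arms. Among H3K4me3 peaks, 19.1% on 3R touched such a site, against 15.2% on 2R, 15.8% on 3L and 16.2% on 2L, and 16.7% (750 of 4488) over the 4 arms. The arms had close median distances to the summit, at 324 bp on 2L, 326 bp on 2R, 330 bp on 3L and 330 bp on 3R. Median fold was from 4.28 on 3L to 4.41 on 2L and 3R, and the share of enclosed sites was from 30.2% on 3L to 39.0% on 3R. ROW was wider than WOC at 85.4% of sites on 3R and 88.3% on 3L, the extremes of the 4 arms. The median gap to the nearest HP1c or HP1b peak was 5902 bp on 2L, 8116 bp on 2R, 7348 bp on 3L and 9311 bp on 3R.

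Along an arm the sites were spread widely, with few in some stretches. With each arm divided into 10 bins of equal length, the bin next to the centromere held 5 sites on 2L, 6 on 2R and 3 on 3L, but 28 on 3R. Per 100 H3K4me3 peaks of the same bin these were 4.63 sites on 2L (108 peaks), 9.23 on 2R (65), 8.11 on 3L (37) and 20.7 on 3R (135). A bin away from the centromere, the seventh of 2L, also held 5 sites (11.4 per 100 H3K4me3 peaks). The bins with most sites were the next 2 of 3R, with 41 and 36 sites, or 25.3 and 28.1 per 100 H3K4me3 peaks. Consecutive sites on an arm were a median of 47494 bp apart. Of the 752 gaps between them, 21 were up to 1 kb and 113 up to 5 kb, and the smallest was 362 bp.

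**Figure D5:**
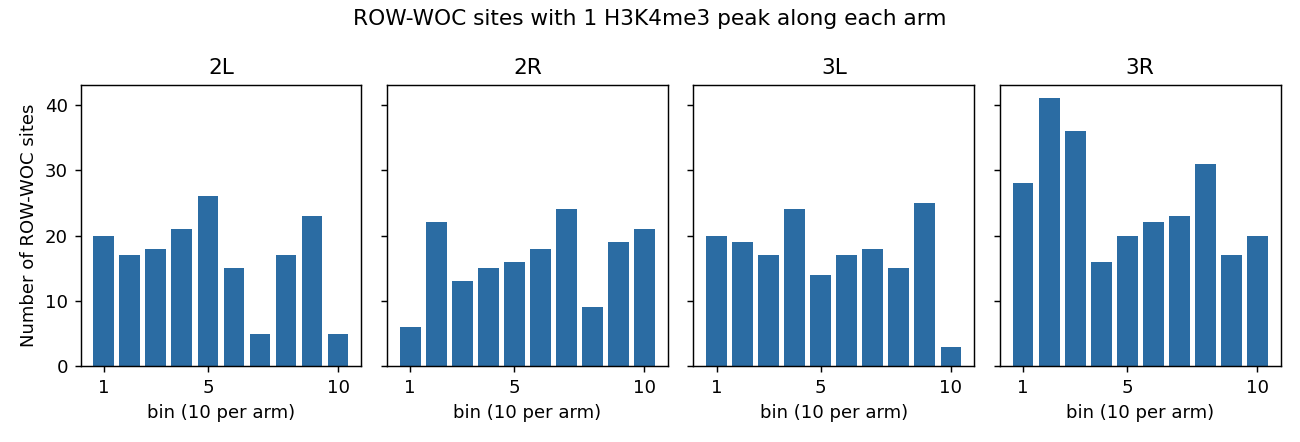
Number of ROW-WOC sites with 1 H3K4me3 peak in each of 10 equal bins of arms 2L, 2R, 3L and 3R, numbered along the arm's coordinates, so that the centromere is at the right of 2L and 3L and at the left of 2R and 3R. The bins next to the centromere hold 5, 6 and 3 sites on 2L, 2R and 3L and 28 on 3R.

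HP1 peaks were absent from the sites by rule, and the nearest HP1c or HP1b peak was usually some kilobases off. The gap was a median of 7495 bp (6845 to 8499) at these sites, with quartiles of 3100 and 18206 bp and a minimum of 284 bp. It was 6012 bp (5376 to 7852) at ROW-WOC regions without H3K4me3 and 8471 bp (6813 to 10601) at ROW-only regions with 1 H3K4me3 peak.

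Most H3K4me3 peaks in the set touched no other factor region. At 48 sites (6.35%) the peak met another region as well, which had HP1c or HP1b at 19 of them and was ROW alone at 12. Their median distance to the summit was 552 bp (430 to 718), against 324 bp (314 to 331) at the 708 sites with a peak of their own, and their H3K4me3 peaks were 1424 bp wide (1180 to 1700) against 790 bp (736 to 845). These 48 supplied 21 of the 53 sites whose summit lay 600 bp or more away. At 6 H3K4me3 peaks 2 of the sites shared the peak, on opposite sides of the summit at 4 of them. One of the 6, on 3L at 8945871 to 8947583 (dm3, 1713 bp, fold 6.13), had its sites 362 bp apart, and was picked after its values were seen.

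The strongest marks of the set were found at enclosed sites, in coordinates of build dm3 on 2L, 3L and 3R. First by both -log10 q and fold was the site on 2L at 10250273 to 10250864, 592 bp long, inside an H3K4me3 peak of 1903 bp with a fold of 8.26, a -log10 q of 166 and a summit 365.5 bp away. Next came 3L at 22871401 to 22872467, 1067 bp long, in a peak of 2177 bp with a fold of 7.77 and a -log10 q of 150, and then 3L at 3471080 to 3471673, 594 bp long, in a peak of 1404 bp with a fold of 7.59 and a -log10 q of 145. At 10250273 and 3471080 the summit was outside the site, and at 22871401 it was inside, 330 bp from the centre.

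The widest H3K4me3 peaks were not the strongest. The widest, 3866 bp with a fold of 4.28, covered 1 edge of the site on 3L at 8435384 to 8435878, with 137 bp of overlap. The next were a peak of 3011 bp with a fold of 4.93, around the site on 2L at 8364524 to 8365125, and a peak of 2969 bp with a fold of 6.39, around the site on 3L at 12743193 to 12743734. Their summits lay 871, 1340 and 266.5 bp from the site centres. In this order, the peaks touched 4, 2 and 3 factor regions, the named site included.

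The widest sites on these 3 arms all had the mark over 1 edge. They were 3R at 12906321 to 12907651 (1331 bp, with 2 WOC peaks under 1 ROW peak), 3L at 24066443 to 24067754 (1312 bp) and 2L at 10226552 to 10227862 (1311 bp), with folds of 6.18, 4.05 and 6.85.

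On 2L, 3L and 3R, distances at the extremes ran from a summit at the centre to one far along a broad peak. The largest distance on 2R was 1534 bp. The summit was 1856.5 bp away at 3L, 2373299 to 2373886, within a peak of 2840 bp, and 1482 bp away at the widest site on 3R. Both of these peaks also touched another factor region. At the other extreme, the summit was 2.0 bp from the centre at 3R, 259555 to 260187. At 3L, 19627925 to 19628254, the summit was 2.5 bp from the centre, and the peak of 1347 bp had a fold of 5.64. Among the 19 sites with a summit under 100 bp from the centre were 5 of the 7 with the H3K4me3 peak inside the site. Of those 7, the one with the highest fold was on 3L at 8170771 to 8171878, a site of 1108 bp around a peak of 605 bp with a fold of 6.75, singled out after its values were seen.

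The rule asks for 1 bp of overlap, and the sites closest to that limit on 2L, 3L and 3R varied in fold and distance. The smallest overlaps were 1 bp on 2L at 9494749 to 9495490 (fold 5.54, summit 608.5 bp away), 3 bp on 2L at 15248425 to 15248930 (fold 2.81, 346.5 bp) and 4 bp on 2L at 7048427 to 7049284 (fold 3.85, 760.5 bp). Just outside, ROW-WOC regions missed a peak by 2 bp on 2L at 5985928 to 5986356 (fold of that peak 3.13), by 3 bp on 3R at 20880413 to 20880708 (3.57) and by 4 bp on 3R at 14982490 to 14983035 (3.85). With an overlap of at least 0.5 of the shorter of site and peak, 367 sites met the rule in place of 756, and the median H3K4me3 width was then 1314 bp in place of 818 bp. Genes around the named sites were not analysed here.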

How the data were processed

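ChIP-seq peaks from fly heads were analysed as deposited by the authors. The submitters' processing notes name Bowtie2, SAMtools, MACS2, deepTools and build dm3, without versions, thresholds or roles, and do not say how replicates were combined. Groups came from the labels. The deposited factor lists give positions only. The deposited H3K4me3 list adds, by its layout, the authors' fold enrichment (a ratio) at the summit, the -log10 q-value (at least 3.02), the summit and a score that is 10 times the -log10 q. Fold and q only describe or rank peaks within that list. Depth is unknown.

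Peaks were merged and measured in Python 3.11.15 (NumPy 2.4.6, SciPy 1.17.1, matplotlib 3.10.9); the code was tested on simulated peaks. The 616 H3K4me3 peaks of contigs U and Uextra meet no factor region and were left out of counts. Named sites are, on 2L, 3L and 3R, the top 3 by -log10 q, fold, H3K4me3 width, site width and smallest overlap, the 2 nearest and 2 farthest summits, and the 3 regions that most narrowly missed a peak. The rule and measures were chosen with earlier results of these data known. Genes and sequence were not used here, since the annotation at hand is of another build.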

Additional observations from a re-analysis of the deposited data

How the results depend on the processing

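Of 76 recomputed values, 60 stayed within the 95% interval of the reported value (for the number of sites, within 1.5 times of it) and 16 did not. Several settings gave nearly the same set of sites (757, 751 and 708 in number), so their values had little room to move. The tally is therefore no measure of robustness. With an overlap of 0.5 of the shorter of site and peak, there were 367 sites, with a median distance of 295 bp, 59.9% of summits outside the site, a fold of 4.58, an H3K4me3 width of 1314 bp and ROW wider than WOC at 90.0%; that setting by construction drops sites that meet the mark only at an edge. With the rule applied to H3K4me3 peaks above the median -log10 q there were 654 sites. Their fold was 4.63 and 8.41% of them had a further peak within 1 kb, fewer peaks being left to count. With factor peaks at least as wide as the median of their list there were 513 sites. The distance was then 370 bp, 68.6% of summits were outside and ROW was wider at 89.8%, and the cause was not tested. That filter also dropped narrow HP1c and HP1b peaks, so a region that holds one can count as a site there. Without 3R there were 502 sites. With the H3K4me3 centre in place of the summit the distance was 350 bp and 63.6% were outside. A further peak was found at 12.6% of sites within 500 bp and at 30.8% within 2 kb. Merging over 200 bp, sites with 1 peak of each protein, peaks of their own, leaving out 2L, 2R or 3L, and the ROW or WOC centre gave values within the intervals. No paired analysis was possible because the replicates of an antibody share a combined list, and leaving out a replicate could not be run for that reason. Unknown depth limits every absence of a peak.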
